A study of Oncorhynchus mykiss with 15 samples.

Results

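The genes of the insulin-like growth factor (IGF) axis were followed in rainbow trout (Oncorhynchus mykiss) liver, with the IGF-binding protein gene IGFBP1 and the ligand gene igf1 at the centre. Members were chosen by name: every gene whose symbol in the deposited table is igf1, igf2, igfbp1, igfbp2, igfbp3, igfbp5, igfbp6, igfals, ghr or igf1r, with a copy suffix a or b allowed. The rule found 28 of the 34965 genes in the table. No measured value entered the rule itself, but it was set with earlier results of these data known. The study concerned liver and hypoxia of different durations, with 5 groups of 3 libraries: N, H3h, H12h, H24h and R3h. What N, H and R stand for is not written out in the labels; times of 3, 12 and 24 hours are part of the H names and 3 hours part of the R name. All fish were 150 days old, and no strain, sex, feeding state or oxygen level is given in the labels used here. Whether the 3 libraries of a group are separate fish is not stated, and p-values therefore measure only the spread between these libraries, which may be technical.

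In fish as in mammals, growth hormone binds its receptor (GHR) on liver cells and drives transcription of igf1, whose product circulates and promotes growth through the IGF1 receptor. Most circulating IGF is held by binding proteins that set how much of it reaches the receptor, and the acid-labile subunit (Igfals) joins some of these complexes and keeps them in the blood for longer. IGFBP1 is a liver-made binding protein that mostly restrains IGF action and is known to rise in fasting, stress and other catabolic states. In zebrafish embryos, igfbp1 is induced by hypoxia and slows growth and development. Trout carry several copies of many genes after whole-genome duplications, so copies are named here by symbol and identifier, and near-identical copies can share reads.

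Levels are given as FPKM, fragment counts scaled to gene length and library depth. Changes are log2 fold changes ± standard error (SE) from edgeR's quasi-likelihood test over all 15 libraries, with Benjamini-Hochberg adjustment over 17502 genes, those whose mean reached 0.5 FPKM. An adjusted p under 0.05 is a call. Of the 28 members, 18 passed that filter on low values and were tested. The libraries held 45364029 to 70416280 counts. In every library the hepatocyte marker genes were high, 42 of 44 of them passing the filter, with a summed level from 56512 to 100266 FPKM. R3h replicate 3 stood apart: its mean correlation with its own group was 0.708, against 0.792 to 0.916 for the other libraries, and 21443 genes reached 10 counts in it, the fewest of all. Its mean hepatocyte marker level was 6.60 on the log2(FPKM + 1) scale, against 8.01 and 8.38 in the other R3h libraries, and its part in the R3h results was not tested beyond leaving it out. Relative to N, the median of all tested genes on the log2(FPKM + 1) scale was 0.029 in H3h; in H12h, H24h and R3h it was -0.355, -0.224 and -0.286. The edgeR medians lay between -0.068 and 0.001, so FPKM levels carry a general shift that the edgeR changes do not. In whole liver, fewer cells of a type and less RNA per cell cannot be told apart.

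Both expressed IGFBP1 copies were higher in all 3 H3h libraries than in any N library, as were 2.94% of all tested genes. IGFBP1 100136312 (chromosome 8, 64689924 to 64697143, minus strand, in the table's coordinates, whose genome build is not given in the sources used here) had the highest mean level of the 3 copies. Its level was 10.8, 6.63 and 4.95 FPKM in N and 20.3, 15.4 and 56.4 FPKM in H3h. In H12h it was 148, 439 and 8.18 FPKM. In H24h it was 146, 43.9 and 40.3 FPKM, and in R3h 53.8, 79.3 and 0.74 FPKM. All H3h and H24h libraries lay above all N libraries, while H12h replicate 3 lay within the N range and R3h replicate 3 below it. The group means were ordered H12h, H24h, R3h, H3h and N, at 199 ± 220, 76.8 ± 60.1, 44.6 ± 40.1, 30.7 ± 22.4 and 7.46 ± 3.01 FPKM (SD, n = 3 each). The change against N was 5.41 ± 1.49 in H12h (edgeR adjusted p = 0.125), 3.64 ± 1.37 in H24h (0.18), 2.96 ± 1.33 in R3h (0.174) and 2.02 ± 1.28 in H3h (1). None of the 10 pairs of groups was called for this copy, neighbours in the order included.

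The H12h value of IGFBP1 100136312 turned on single libraries. Without H12h replicate 3 the change against N was 5.98, with an edgeR adjusted p of 0.0295, and without H12h replicate 2 the adjusted p was 0.509. DESeq2 gave an adjusted p of 0.00174 with all libraries, and the adjusted p over all alternatives ranged from 0.00138 to 0.509. The lowest value of that range came from leaving out both H12h replicate 3 and R3h replicate 3, a choice made after seeing the data. The edgeR adjusted p against N was then 0.00138 in H12h, 0.0281 in H24h and 0.0174 in R3h, and 0.0143 in H12h against H3h. Those libraries held the lowest level of this copy in their groups, so these p-values cannot serve as support for a rise. With all libraries, limma gave a smaller R3h change against N, 1.28 with a pseudocount of 1 and 1.09 with 0.1.

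IGFBP1 101268901 (chromosome 5, 77398660 to 77400718, plus strand), named igfbp1a in RefSeq, followed another course. It stood at 42.4, 1.34 and 11.1 FPKM in N and at 123, 134 and 111 FPKM in H3h. In H12h it was 208, 190.4 and 7.19 FPKM. It was then 2.97, 3.76 and 8.28 FPKM in H24h and 6.34, 9.97 and 10.4 FPKM in R3h. The 3 H3h libraries were alike and all above N, 2 of 3 H12h libraries were higher still, and every H24h and R3h library was back among the N values. From H3h to H24h this copy fell by 4.29 ± 1.13 on the log2 scale (edgeR adjusted p = 0.0473), from 122 ± 11.3 to 5.0 ± 2.87 FPKM (SD, n = 3), a fitted 19.6-fold difference. That call held in 12 of 24 alternatives, with an adjusted p from 0.000222 to 0.162. Of the 12 losses, 11 left out 1 library: N replicate 3, H12h replicate 1 or 2, R3h replicate 1 or 2, or any single H3h or H24h library.

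Against N, the same copy changed by 2.85 ± 1.05 in H3h (edgeR adjusted p = 1, unadjusted p = 0.0172) and by 3.65 ± 1.09 in H12h (0.155). Its change from H12h to H24h was -5.09 ± 1.17 (0.0956). All its R3h libraries lay below all H3h libraries, with a change of -3.38 ± 1.08 (0.0625), called in 7 of 24 alternatives. The group order was H12h, H3h, N, R3h and H24h, and no neighbours in it were called different. N replicate 1, at 42.4 FPKM, sets part of the N level: without it the H24h change against N moved from -1.45 to 0.043 and the R3h change from -0.53 to 0.95.

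**Figure D1:**
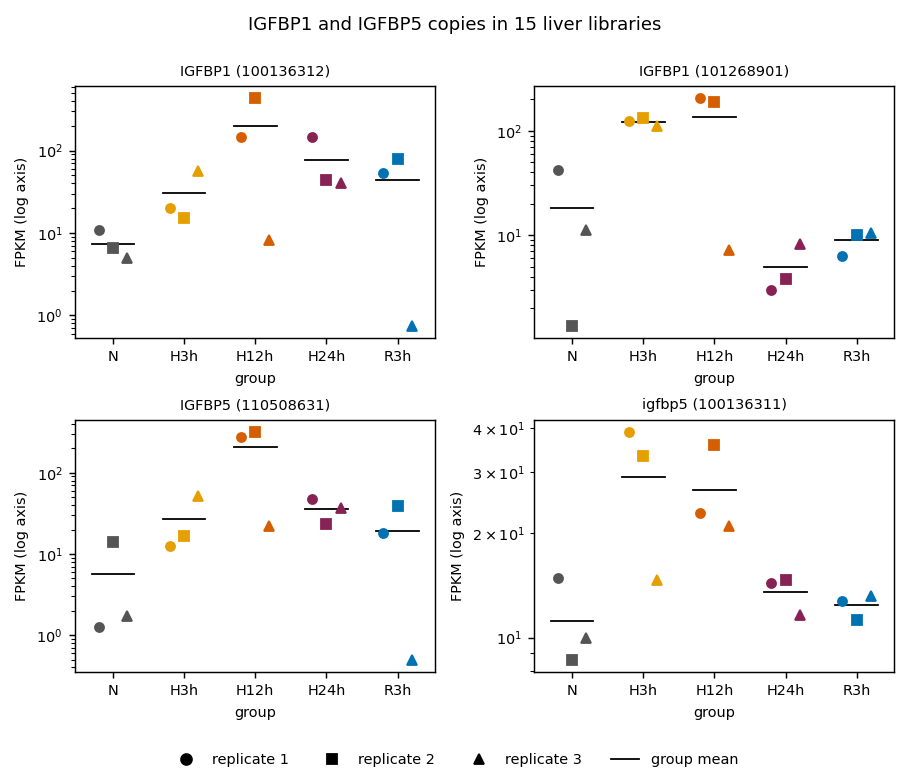
FPKM of the IGFBP1 and igfbp5 copies with a group mean of at least 5 FPKM, by group on a log axis; each point is a library (its shape gives the replicate number) and each line a group mean. IGFBP1 101268901 is above 100 FPKM in all H3h libraries and under 10 FPKM in all H24h libraries, and H12h replicate 3 lies far under the other H12h libraries in IGFBP1 and IGFBP5 110508631.

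The shares of both copies in the IGFBP1 level varied between groups and also within N and R3h, and no pair of groups was called different. IGFBP1 100136312 supplied 14.2%, 10.3% and 33.6% of the summed IGFBP1 FPKM in the H3h libraries and 97.7%, 92.1% and 82.5% in the H24h libraries. In N it supplied 20.2%, 79.8% and 30.1%, and in H12h 41.6%, 69.6% and 52.0%. In R3h the shares were 89.0%, 88.1% and 6.63%, with replicate 3 far from the other two. The log2 ratio of the copies was 6.05 higher in H24h than in H3h, with no overlap of the libraries. An exact two-sided permutation test gave p = 0.1, the smallest p that 3 against 3 libraries allow, and 0.333 after Benjamini-Hochberg adjustment over the 10 pairs of groups. The remaining copy, IGFBP1 110521770 on chromosome 4, never passed 1.29 FPKM and was not tested.

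IGFBP5 110508631 (chromosome 28, 15589758 to 15592702, plus strand) varied over libraries much as IGFBP1 100136312 did. IGFBP5 is a binding protein that can form the ternary complex with Igfals. Its level was 1.25, 14.2 and 1.70 FPKM in N and 12.4, 16.6 and 51.4 FPKM in H3h. In H12h it was 279.7, 320.0 and 21.9 FPKM. In H24h it was 47.3, 23.6 and 36.8 FPKM, and in R3h 18.3, 38.5 and 0.49 FPKM. All H12h and H24h libraries lay above all N libraries, and R3h replicate 3 lay below them. The change was 5.60 ± 1.52 in H12h against N (edgeR adjusted p = 0.122, and 0.00123 by DESeq2) and 2.72 ± 1.33 in H24h (0.276). Over the alternatives the H12h adjusted p ran from 0.00123 to 0.425. It was 0.0415 without H12h replicate 3 and highest without H12h replicate 2. N replicate 2, at 14.2 FPKM, sets most of the N level: without it the change against N was 7.88 in H12h, 5.0 in H24h, 4.29 in H3h and 4.16 in R3h.

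Over the 15 libraries the log2(FPKM + 1) values of IGFBP5 110508631 and IGFBP1 100136312 had a Pearson r of 0.887 and a Spearman rho of 0.896. After the group means were removed r was 0.867, and without the 2 libraries farthest from the median it was 0.79. These are descriptions, and the points share libraries and scaling. Between both expressed IGFBP1 copies the Pearson r was 0.325.

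The gene the table names igfbp5 100136311 (chromosome 9, 56907243 to 56911497, minus strand) is named igfbp6 in RefSeq, so its family is uncertain. It stood at 14.9, 8.60 and 9.99 FPKM in N and at 39.1, 33.3 and 14.6 FPKM in H3h. In H12h it was 22.8, 36.0 and 21.0 FPKM. In H24h it was 14.4, 14.6 and 11.6 FPKM, and in R3h 12.7, 11.2 and 13.2 FPKM. All H12h libraries, replicate 3 included, lay above all N libraries, and 2 of 3 H3h libraries were at the H12h level. Its change against N was 1.84 ± 0.41 in H12h (edgeR adjusted p = 0.0676, 0.00101 by DESeq2, and 0.00101 to 0.338 over the alternatives) and 1.35 ± 0.40 in H3h (1). Across the 5 groups edgeR called it at an adjusted p of 0.0474, and 8 of 23 alternatives did (0.00119 to 0.117). That call was lost with no filter on low values (0.0547), with both limma settings (0.0554 and 0.0673) and with a replicate block. It was also lost without any 1 of N replicates 1 to 3, H3h replicate 1 or 2, or H12h replicate 1 or 2. The same held without any 1 of H24h replicates 1 to 3 or R3h replicate 1.

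The remaining igfbp5 copies were low. IGFBP5 100136681 lay between 0.47 and 4.75 FPKM, with no group mean above 3.40 FPKM. Copies 110528845, 110495435 and 110520602 never passed 0.51 FPKM and were not tested. IGFBP6, a binding protein that prefers IGF2, had 2 copies. IGFBP6 110494217 reached 9.04 FPKM in H3h replicate 1 and stayed at or under 2.96 FPKM in all other libraries. IGFBP6 110492009 reached 2.04 FPKM at most. The 3 IGFBP3 copies, whose product is the main carrier of circulating IGF in mammals, were at or under 0.27 FPKM in every library.

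The igfbp2 genes, whose product is another liver-made carrier of IGF, were expressed in every library. The igfbp2a copy 110528844 (chromosome 7, 1454122 to 1469738, plus strand) stood at 26.7, 9.72 and 14.9 FPKM in N and at 9.85, 9.87 and 10.4 FPKM in H3h. In H12h it was 25.1, 14.0 and 27.3 FPKM. In H24h it was 32.4, 27.8 and 25.4 FPKM, and in R3h 28.2, 23.5 and 10.8 FPKM. The H3h libraries were the most alike and lay below every H12h, H24h and R3h library. The copy rose from H3h to H24h by 1.88 ± 0.41 (edgeR adjusted p = 0.0338) and was higher in R3h than in H3h by 1.49 ± 0.40 (0.037). Without R3h replicate 3 the R3h difference was 1.84 ± 0.35 (0.0125). Each call held in 15 of 24 alternatives, with an adjusted p from 0.00024 to 0.132 for H24h and from 0.00348 to 0.148 for R3h. The H24h call was lost without N replicate 3, H12h replicate 1, or any single H3h or H24h library, and with limma on log2(FPKM + 0.1) (0.0542). The R3h call was lost without H12h replicate 1, R3h replicate 1, or any single H3h library. It was also lost with a replicate block, in a fit of R3h and H3h alone (0.148) and with both limma settings (0.129 and 0.132). With limma the log2 difference was 0.88 and 0.93. Against N the copy changed by -0.75 ± 0.40 in H3h and 1.13 ± 0.40 in H24h (1 and 0.163).

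Its counterpart igfbp2a 100136678 on chromosome 18 was 49.8, 79.6 and 55.6 FPKM in N and 45.7, 32.0 and 79.0 FPKM in H3h. It was 73.2, 78.9 and 80.6 FPKM in H12h and 121, 119.7 and 112 FPKM in H24h. In R3h it was 94.1, 117 and 46.7 FPKM, with replicate 3 again the lowest. Every H24h library lay above every N and H3h library. The changes were 1.22 ± 0.44 against N (edgeR adjusted p = 0.165) and 1.56 ± 0.44 against H3h (0.0548), and the second was called in 6 of 24 alternatives. The shorter gene model igfbp2b 110520601 on chromosome 3 (78193858 to 78194308) is the only member without a RefSeq entry. It had group means from 62.3 to 65.1 FPKM in N, H3h, H12h and H24h and 96.0 ± 14.3 FPKM in R3h. It held 55.5, 83.2 and 48.3 FPKM in N and 57.7, 70.4 and 67.3 FPKM in H3h. It held 59.8, 50.8 and 77.9 FPKM in H12h, 76.2, 55.9 and 62.9 FPKM in H24h, and 101.5, 79.7 and 107 FPKM in R3h. The R3h libraries overlapped N through N replicate 2 alone, and lay above all H3h, H12h and H24h libraries. The R3h change against N was 0.96 ± 0.33 (0.092; called in 3 of 24 alternatives).

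**Figure D2:**
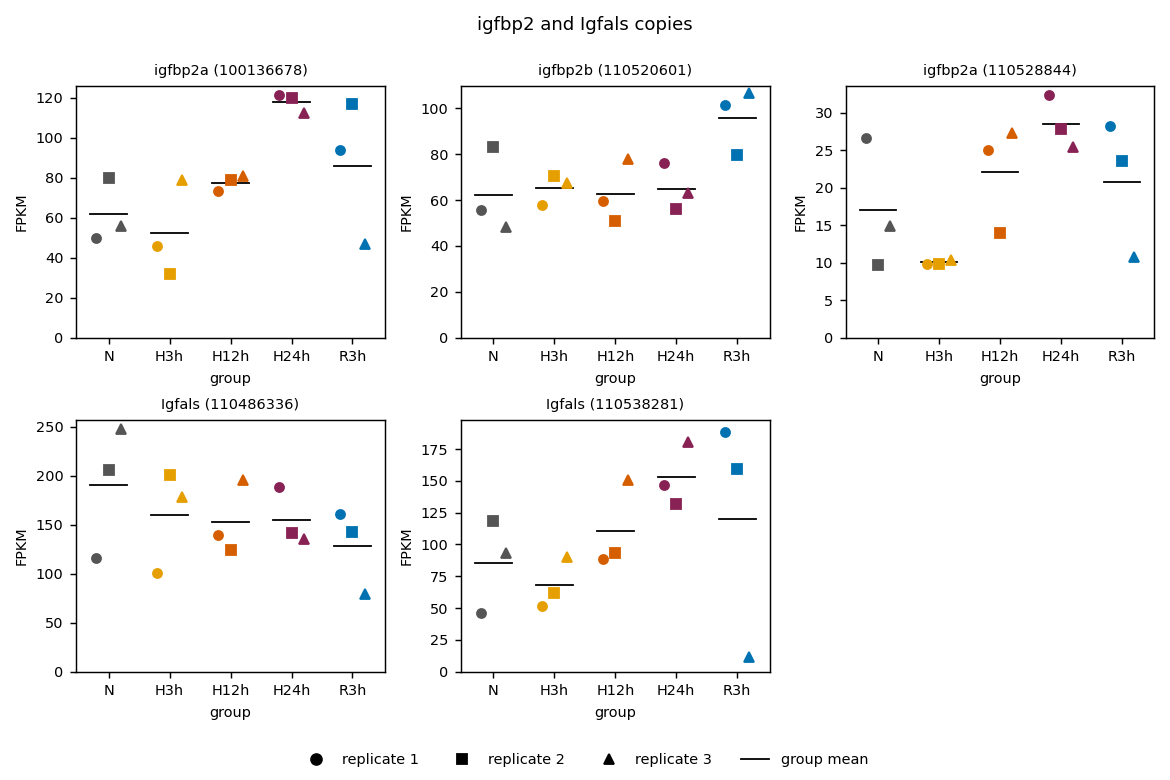
FPKM of the igfbp2 and Igfals copies by group on linear axes that start at 0; points are libraries (shape by replicate number) and lines are group means. igfbp2a 110528844 is lowest and tightest in H3h and above 25 FPKM in all H24h libraries, and R3h replicate 3 is the lowest R3h library in 4 of the 5 panels.

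Of the 28 members, 10 lie beside another binding-protein gene, in 5 pairs with no gene between them. On chromosome 7, igfbp2a 110528844 and igfbp5 110528845 were 524 bases apart on opposite strands, at mean levels of 19.7 and 0.20 FPKM over all libraries. On chromosome 18, igfbp2a 100136678 and igfbp5 110495435 were 479 bases apart, at 79.0 and 0.15 FPKM. On chromosome 5, IGFBP1 101268901 had IGFBP3 110524670 as its next gene, 27.6 kb away, at 57.9 and 0.02 FPKM. On chromosome 3, igfbp2b 110520601 and IGFBP5 110520602 were 16.8 kb apart, at 70.2 and 0.0093 FPKM. In these 4 pairs one gene was expressed in liver and the other was near 0. In the pair on chromosome 4, IGFBP1 110521770 and IGFBP3 110521771 at 8.9 kb, both were low, at 0.36 and 0.045 FPKM.

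The main igf1 copy was lower in every R3h library than in any N library, as were 21.6% of all tested genes in FPKM. This copy, igf1 110500054 (chromosome 21, 14859325 to 14880190, minus strand), encodes the circulating growth factor made by the liver. Its level was 6.35, 24.5 and 37.5 FPKM in N, with replicate 1 far below the other two. It was 4.63, 4.52 and 8.17 FPKM in H3h and 3.79, 7.80 and 7.04 FPKM in H12h. In H24h it was 3.90, 8.84 and 3.58 FPKM, and in R3h 1.43, 3.65 and 1.13 FPKM. N replicates 2 and 3 lay above every other library, whereas N replicate 1 lay within the range of H3h, H12h and H24h.

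From N to R3h igf1 110500054 fell by 3.15 ± 0.72 on the log2 scale (edgeR adjusted p = 0.0306), from 22.8 ± 15.6 to 2.07 ± 1.38 FPKM (SD, n = 3). It was the 1 of 18 tested members called in that comparison, in which 5.34% of all tested genes were called and 1.79% were called lower. The call held in 18 of 24 alternatives, with log2 changes from -3.73 to -2.74 and adjusted p from 0.000151 to 0.24. It was lost without N replicate 1 (0.0559), N replicate 3 (0.122), R3h replicate 1 (0.0894) or R3h replicate 3 (0.0534, log2 change -2.86), and with a fit of N and R3h alone (0.24). It was lost as well with both H12h replicate 3 and R3h replicate 3 left out (0.0557), where IGFBP1 100136312 was the member called in R3h against N. Against N the changes were -2.05 ± 0.68 in H3h (adjusted p = 1), -1.38 ± 0.67 in H12h (0.37) and -1.65 ± 0.68 in H24h (0.206). The order was N, H12h, H3h, H24h and R3h, and no neighbours in it were called different. The R3h libraries also lay below all H3h and H12h libraries, with changes of -1.11 ± 0.67 (0.282) and -1.78 ± 0.68 (0.169).

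The other igf1 copy, 100136741 on chromosome 15, lay between 0.25 and 3.36 FPKM. Its means were 2.51 ± 1.34 FPKM in N, 0.73 ± 0.50 in H3h and 2.25 ± 1.07 in H24h, and edgeR called it in no comparison. DESeq2 called it in H24h against H3h (adjusted p = 0.0447), as 1 of 24 alternatives. The single igf2 gene, 100136742, encodes the second IGF ligand. It was 9.86, 7.66 and 21.9 FPKM in N, 4.59, 4.67 and 6.27 FPKM in H3h and 4.16, 3.55 and 7.27 FPKM in H12h. It was 11.1, 5.30 and 6.74 FPKM in H24h and 9.58, 8.04 and 0.10 FPKM in R3h. All H3h and H12h libraries lay below all N libraries, as did 3.74% and 28.0% of all tested genes. The changes were -1.34 ± 0.86 and -0.88 ± 0.85 (edgeR adjusted p = 1 and 0.676). R3h replicate 3 was close to 0 while the other R3h libraries were within the N range.

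**Figure D3:**
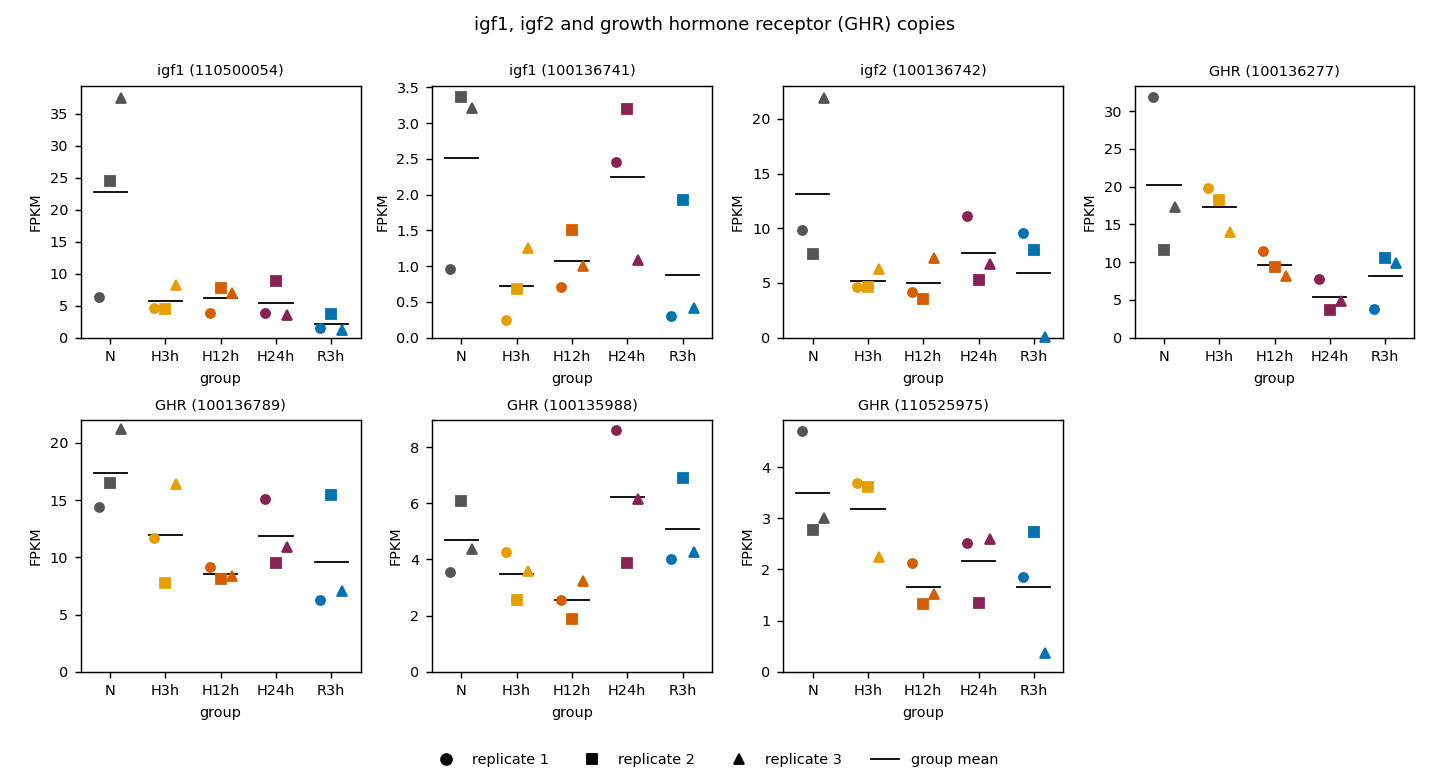
FPKM of the 7 tested igf1, igf2 and GHR copies by group, on linear axes that start at 0; points are libraries (shape by replicate number) and lines are group means. igf1 110500054 is above 20 FPKM in N replicates 2 and 3 only, and GHR 100136277 is under 8 FPKM in all H24h libraries.

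Summed over copies and per unit length, IGFBP1 outweighed igf1 in every library except N replicates 2 and 3. The ratio of summed IGFBP1 to summed igf1 FPKM was 7.30, 0.298 and 0.404 in N and 29.4, 28.6 and 17.8 in H3h. It was 79.2, 67.8 and 1.96 in H12h, 23.5, 3.95 and 10.5 in H24h, and 35.0, 16.2 and 7.20 in R3h. All H3h libraries lay above all N libraries, and N replicate 1 alone of its group overlapped H12h, H24h and R3h. This ratio is a description, since both genes were chosen with their levels known.

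**Figure D4:**
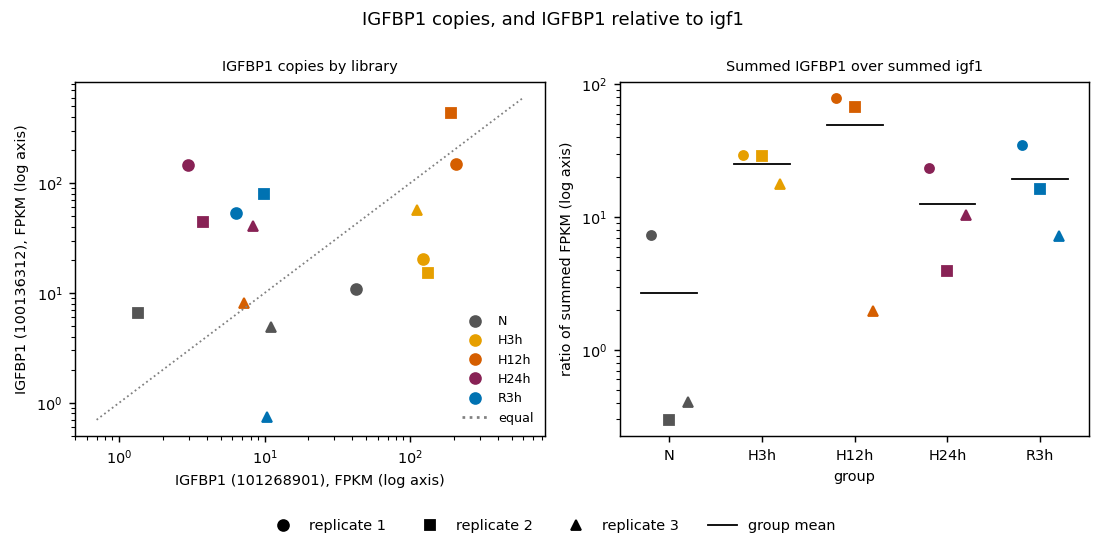
Left, FPKM of IGFBP1 100136312 against IGFBP1 101268901 on log axes, a point per library coloured by group, with a dotted line where both are equal; right, the ratio of summed IGFBP1 to summed igf1 FPKM by group on a log axis, with group means. H3h libraries lie below the dotted line and H24h libraries above it, and the ratio is under 1 in N replicates 2 and 3 only.

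Of the 4 growth hormone receptor genes, GHR 100136277 (chromosome 5, named ghr1 in RefSeq) had the highest mean level. It was 31.9, 11.6 and 17.3 FPKM in N and 19.9, 18.3 and 14.0 FPKM in H3h. It was 11.5, 9.42 and 8.16 FPKM in H12h, 7.74, 3.70 and 4.91 FPKM in H24h, and 3.82, 10.6 and 9.93 FPKM in R3h. All H12h, H24h and R3h libraries lay below all N libraries. In FPKM the same held for 28.0%, 19.4% and 21.6% of all tested genes, in that order. The change against N was -1.56 ± 0.39 in H24h (edgeR adjusted p = 0.105), -0.93 ± 0.39 in R3h (0.15) and -0.47 ± 0.38 in H12h (0.603). For H24h the adjusted p ranged from 0.00728 with DESeq2 to 0.396 without N replicate 1, and it was 0.0447 without R3h replicate 3.

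GHR 100136789 on chromosome 29 was 14.4, 16.5 and 21.2 FPKM in N, 11.7, 7.74 and 16.4 FPKM in H3h and 9.18, 8.14 and 8.33 FPKM in H12h. It was 15.1, 9.50 and 10.9 FPKM in H24h and 6.23, 15.4 and 7.04 FPKM in R3h. Its H12h libraries lay below all N libraries, and the fitted change was -0.50 ± 0.36 (edgeR adjusted p = 0.541). GHR 100135988 on chromosome 11 was 3.57, 6.10 and 4.39 FPKM in N and 4.27, 2.56 and 3.58 FPKM in H3h. It was 2.55, 1.88 and 3.22 FPKM in H12h, 8.62, 3.88 and 6.15 FPKM in H24h, and 4.01, 6.92 and 4.28 FPKM in R3h. Here H24h lay above all H12h libraries, by 1.07 ± 0.34 (0.171). Against N this copy changed by 0.625 ± 0.333 in H24h (0.316) and 0.419 ± 0.332 in R3h (0.434). From H3h to H24h it changed by 1.18 ± 0.34 (0.0567), called in 6 of 24 alternatives. GHR 110525975 had group means from 1.65 to 3.50 FPKM.

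All 4 GHR genes had H12h libraries that lay below every N library in FPKM. The same held for 28.0% of all tested genes, and the 4 fitted changes, from -0.54 to -0.44, were not called. Summed over copies, GHR stood at 45.8 ± 8.76 FPKM in N and 36.0 ± 3.67 in H3h (SD, n = 3). The H12h, H24h and R3h sums were 22.5 ± 2.51, 25.6 ± 7.81 and 24.4 ± 10.2 FPKM. Both IGF1R genes, which encode the receptor that IGF1 acts through, were at or under 0.07 FPKM in every library and were not tested.

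The acid-labile subunit genes were among the most expressed members. Igfals 110486336 on chromosome 13 was 116, 206 and 248 FPKM in N and 100.5, 201 and 178 FPKM in H3h. It was 139, 124 and 195 FPKM in H12h, 189, 141 and 136 FPKM in H24h, and 161, 142 and 79.7 FPKM in R3h. Every group overlapped N, and the fitted changes lay between -0.28 and 0.15, and in each of the 4 groups the sign changed under some setting. Igfals 110538281 on chromosome 12 was 45.8, 118 and 93.3 FPKM in N and 51.7, 62.1 and 89.9 FPKM in H3h. It was 89.0, 93.0 and 151 FPKM in H12h, 147, 132 and 181 FPKM in H24h, and 189, 159 and 11.7 FPKM in R3h. Its H24h libraries lay above all N libraries, with a change of 1.08 ± 0.71 (edgeR adjusted p = 0.412). R3h replicate 3 was again the lowest library.

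Over all 18 tested members, edgeR called 0 in H3h against N (background 0.0% of tested genes), 0 in H12h against N (0.223%) and 0 in H24h against N (0.2%). At an unadjusted p under 0.05 edgeR gave 4, 5 and 5 members, beside 2.19%, 14.3% and 19.7% of tested genes. DESeq2 called 0, 4 and 1 of the members, beside 0.08%, 4.73% and 7.2%. limma called none, beside 0.00571%, 0.137% and 0.274%. The 4 members that DESeq2 called in H12h were both expressed IGFBP1 copies, IGFBP5 110508631 and igfbp5 100136311. In R3h against N 4 members had an unadjusted p under 0.05 (26.6% of tested genes), DESeq2 called 2 (15.9%) and limma 1 (10.8%).

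In H24h against H3h edgeR called 2 members, IGFBP1 101268901 lower and igfbp2a 110528844 higher, where 4.47% of tested genes were called, 2.49% higher and 1.98% lower. There 7 members had an unadjusted p under 0.05 (26.8%), DESeq2 called 7 (16.5%) and limma 3 (9.34%). In R3h against H3h edgeR called igfbp2a 110528844 alone, where the background was 8.94% and 5.77% were called higher. There 6 members had an unadjusted p under 0.05 (29.2%), DESeq2 called 6 (19.7%) and limma 1 (16.6%). The member called by limma was another one, since limma did not call igfbp2a 110528844 there.

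Across the other pairs edgeR called no member, with backgrounds of 0.0% in R3h against H24h, 0.0171% in H12h against H3h, 0.0% in H24h against H12h and 0.0914% in R3h against H12h. In that order, members with an unadjusted p under 0.05 numbered 1, 4, 5 and 5, beside 7.36%, 16.0%, 14.5% and 20.6% of tested genes. DESeq2 called 0, 1, 2 and 3, beside 0.291%, 4.55%, 4.59% and 8.42%. limma called 0 in each, beside 0.0%, 0.04%, 0.0571% and 0.263%.

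The test across the 5 groups called 3 members with edgeR, IGFBP1 101268901 (adjusted p = 0.0298), igfbp2a 110528844 (0.0453) and igfbp5 100136311 (0.0474), beside 7.24% of all tested genes. There 10 members had an unadjusted p under 0.05 (29.0%), DESeq2 called 9 (25.7%) and limma 3 (11.6%). They held in 11, 9 and 8 of 23 alternatives, in the same order. The calls of IGFBP1 101268901 and igfbp2a 110528844 were each lost without N replicate 3, any single H3h or H24h library, H12h replicate 1 or 2, or R3h replicate 1. With limma on log2(FPKM + 0.1) both were lost (0.053 and 0.123), and igfbp2a also with limma on log2(FPKM + 1) (0.113) and with no filter (0.0515). A replicate block ended both calls as well. The gene igf1 110500054 stood at 0.0557.

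Groups that did not overlap were read beside the same share of all genes. In H3h against N 2 members were higher in all libraries, both of them IGFBP1 copies, and 1 was lower, igf2, where 2.94% and 3.74% of tested genes did so. In H12h against N 2 were higher, IGFBP5 110508631 and igfbp5 100136311, and 5 were lower, the 4 GHR genes and igf2 (3.71% and 28.0%). In H24h against N 4 were higher and 2 lower (8.08% and 19.4%). The 4 were IGFBP1 100136312, IGFBP5 110508631, igfbp2a 100136678 and Igfals 110538281, and the 2 were GHR 100136277 and GHR 110525975. In R3h against N none was higher and 3 were lower, igf1 110500054 and the same pair of GHR genes (6.93% and 21.6%). These comparisons share the N libraries.

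**Figure D5:**
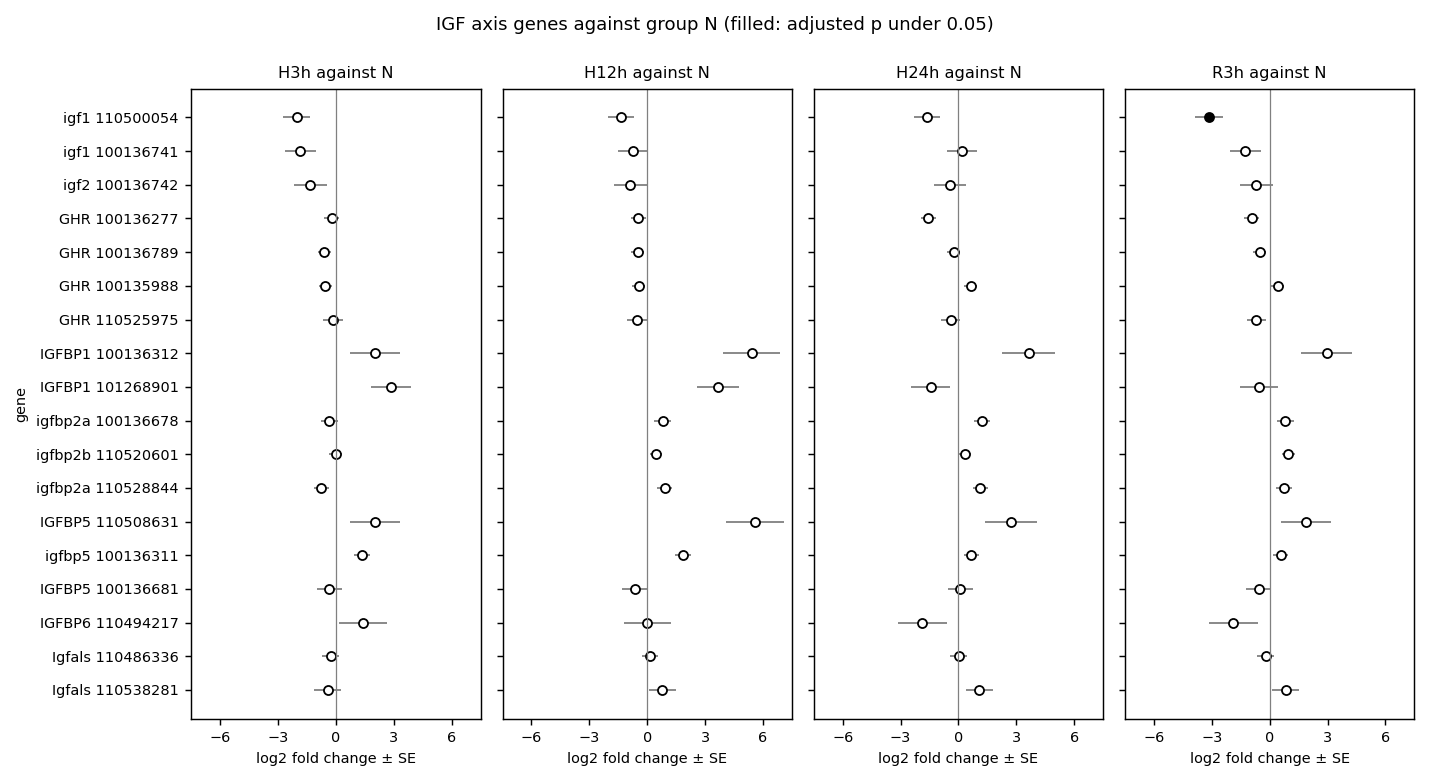
Log2 fold change against N with SE for the 18 tested members, in H3h, H12h, H24h and R3h, from edgeR; filled points are called at adjusted p under 0.05. Only igf1 110500054 in R3h is filled, and IGFBP1 100136312 and IGFBP5 110508631 in H12h have the widest error bars.

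Erythrocyte marker levels moved with the groups. Their summed level over 31 genes, 24 of them tested, was 238 to 512 FPKM in N and 173 to 573 FPKM in H3h. It was 300.2 to 883 FPKM in H12h, 643 to 2097 FPKM in H24h and 335 to 1425 FPKM in R3h. The H24h libraries thus lay above all N and H3h libraries, as they did for igfbp2a 100136678, and the part of blood cells in these results was not tested. Other marker lists also left the N range. Hepatocyte sums in H12h were 83327 to 94190 FPKM, above the 67245 to 82463 FPKM of N, and cholangiocyte sums in H12h were 121 to 148 FPKM, below the 169.7 to 291 FPKM of N (41 genes, 15 tested). Endothelial sums were 11.01 to 12.6 FPKM in N, and higher at 13.6 to 18.3 FPKM in H12h and 13.4 to 19.4 FPKM in H24h (16 genes, 7 tested). Stellate cell sums were 72.01 to 103 FPKM in N, and higher at 111 to 119 FPKM in H3h and 104 to 129 FPKM in R3h (32 genes, 24 tested). Macrophage sums overlapped N in every group (15 genes, 9 tested). Sums rest mostly on the highest genes, and the mean log2(FPKM + 1) of a list gave partly other results. On that scale macrophage levels were 1.67, 1.56 and 1.10 in R3h, below the 1.69, 2.17 and 2.29 of N. Hepatocyte levels in H12h and stellate cell levels in H3h and R3h overlapped N there. The cholangiocyte and endothelial differences from N kept their direction without overlap. The part of these cells was not tested either. Endocrine pancreas markers summed to at most 0.76 FPKM over 11 genes. Exocrine pancreas markers summed to at most 5.42 FPKM over 14 genes. No listed marker had 0 counts in all libraries.

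Growth hormone signals through JAK and STAT proteins and is damped by SOCS proteins and phosphatases. Of the 27 genes in that list, 19 were tested. For this list and those that follow, the named edgeR calls come from all libraries. They were not followed with single libraries left out, as the calls of members were. In H3h and in H12h against N, 9 of 19 had a positive change, beside 50.1% and 46.1% of all tested genes. The medians were -0.023 and -0.127, beside 0.001 and -0.068 over all tested genes. In H24h against N, 1 of 19 had a positive change, beside 47.7% of all tested genes. The median was -0.82, beside -0.048 over all tested genes. In R3h against N, 3 of 19 had a positive change, beside 48.4%, and the median was -0.78, beside -0.037. edgeR called none of them in H24h, beside 0.2% of all tested genes. There 4 had an unadjusted p under 0.05 (19.7%), DESeq2 called 2 (7.2%) and limma 0 (0.274%). In R3h edgeR called 1, beside 5.34% of all tested genes, DESeq2 3 (15.9%) and limma 4 (10.8%). The gene that edgeR called was Socs3 110499415, an inhibitor of cytokine receptor signalling. Its mean FPKM was 13.3 ± 12.9 and 20.3 ± 10.4 in N and H3h, 5.55 ± 0.82 in H12h, and 0.82 ± 0.45 and 1.25 ± 0.85 in H24h and R3h. It fell in R3h, with a log2 change of -2.94 ± 0.73 against N (edgeR adjusted p = 0.0377) and -3.67 ± 0.76 against H3h (0.0172). From H3h to H24h it fell as well, with -4.38 ± 0.78 (0.0247). In R3h and in H24h against H3h, Socs3 was the 1 of 19 called, beside 8.94% and 4.47% of all tested genes. Its H24h change against N was -3.66 ± 0.76 (0.0773). SOCS2, a brake on GHR itself, changed by 3.52 ± 1.19 in H12h against N (0.199) at means of 0.52 and 3.65 FPKM. The changes of CISH, another SOCS-family inhibitor, and of the phosphatase gene Ptpn1 were -2.17 ± 0.78 (0.224) and 0.98 ± 0.35 (0.216). CISH was low, at means of 1.57 FPKM in N and 0.22 in H12h, and Ptpn1 stood at 6.24 and 8.13 FPKM.

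Of 41 genes for other IGF-binding proteins, receptors and proteases, 16 were tested. IGF2R 110522220, the receptor that clears IGF2 in mammals, fell in R3h, with a log2 change of -1.49 ± 0.27 against N (edgeR adjusted p = 0.0184) and -1.32 ± 0.27 against H3h (0.0168). Its mean was 1.81 ± 0.54 FPKM in N and 0.49 ± 0.09 in R3h. The gene furin 110506586, a convertase that cleaves precursor proteins, fell in R3h, with a log2 change of -2.26 ± 0.57 against N (0.0396) and -2.49 ± 0.58 against H3h (0.0241), from 57.4 ± 20.4 FPKM in N to 9.22 ± 7.96 in R3h. Igfbp7 100136677, an IGFBP-related protein, rose from H3h to H24h by 1.998 ± 0.46 (0.0389). It was the 1 of 16 called in that comparison, beside 4.47% of all tested genes. In R3h against H3h edgeR called 2 of the 16, beside 8.94%. In R3h against N edgeR thus called 2 of the 16, beside 5.34% of all tested genes. DESeq2 called 2 (15.9%) and limma 3 (10.8%). In H12h against N edgeR called none of this list (0.223% of all tested genes). There 1 had an unadjusted p under 0.05 (14.3%), DESeq2 called 1 (4.73%) and limma 0 (0.137%). The smallest p-values there were those of the protease genes ctsd (1.42 ± 0.43, 0.156) and PLG (1.02 ± 0.50, 0.376) and of igf2bp1, an RNA-binding protein gene (0.53 ± 0.33, 0.478).

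Of 99 genes of insulin and IGF receptor signalling, 64 were tested. In H12h against N 1 rose, FOXO4 110504990, a forkhead factor restrained by insulin signalling, by 3.12 ± 0.58 (edgeR adjusted p = 0.0463) from 1.05 ± 0.11 to 6.09 ± 3.75 FPKM. That is 1 of 64, beside 0.223% of all tested genes. DESeq2 called 5 of the list (4.73% of all tested genes) and limma 0 (0.137%), so FOXO4 was not called by limma. The changes of foxo1a, whose mammalian counterpart binds the IGFBP1 promoter, and of its relative Foxo3 were 2.36 ± 0.50 (0.0665) and 2.11 ± 0.55 (0.111). Across the 5 groups edgeR called 3 of the 64, beside 7.24% of all tested genes. They were foxo1a (0.0345), Foxo3 (0.0388) and FOXO4 (0.0131). In R3h against N 2 rose, the mTOR pathway genes Rheb by 0.95 ± 0.26 (0.0463) and RICTOR by 1.16 ± 0.30 (0.0398). That is 2 of 64, a lower share than the 5.34% of all tested genes. DESeq2 called 7 and limma 4, beside 15.9% and 10.8% of all tested genes. In H24h against N, Rheb changed by 0.76 ± 0.25 (0.15) and RICTOR by 1.02 ± 0.295 (0.119). No tested gene was called by edgeR in R3h against H24h. In R3h against H3h edgeR called 1 of the 64, a lower share than the 8.94% of all tested genes. This was GSK3B, a kinase inhibited by insulin signalling, which fell by 1.55 ± 0.45 (0.0469). In H24h against H3h edgeR called 1 of the 64, beside 4.47% of all tested genes. This was the small GTPase gene HRAS, which rose by 0.999 ± 0.26 (0.0473). The median change of the list against N was 0.039 in H3h, 0.041 in H12h, and -0.27 and -0.24 in H24h and R3h. The medians of all tested genes were 0.001, -0.068, -0.048 and -0.037, in that order.

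Among all named tested genes outside the axis, those whose log2(FPKM + 1) values over the 15 libraries were most like IGFBP1 100136312 were Ip6k2 (Pearson r 0.903), Hpgd (0.901), HLF (0.89), CREG1 (0.889) and csnk1db (0.882). Ip6k2 encodes an inositol phosphate kinase and rested on means of 9.40 ± 1.86 FPKM in N and 34.0 ± 25.9 in H12h. Hpgd encodes a prostaglandin-degrading enzyme, at 40.1 ± 2.80 FPKM in N, 99.5 ± 51.3 in H12h and 96.4 ± 12.2 in H24h. Most like igf1 110500054 were Dennd4c (0.84), Cd209d (0.808), CSK (0.807), phospho2 (0.803) and Ppm1d (0.801), all with a mean of at most 2.47 FPKM in N. The points of each correlation share libraries and depth.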

How the data were processed

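Liver RNA of 15 libraries was analysed from a table in which the authors give, per the file headers, raw counts per gene and FPKM for each library. Bowtie2 2.2.8 and TopHat2 2.1.1 are named in the submitters' processing notes; for the build and the counting tool, a name is not given in the sources used here. The length implied by count and FPKM varied by a median of 0.19% over 9568 genes. Counts were tested with edgeR 4.0.16 in R 4.3.3 (TMM scaling, 5 group means, no replicate block) for genes whose mean FPKM reached 0.5, which held at least 99.02% of each library's counts. P-values are two-sided. SE is approximated as the log2 change over the root of its F statistic. The procedure was also run on simulated counts with known changes in H12h. No outlying library was simulated, so the effect of such libraries was not tested there. Depth was 45364029 to 70416280 counts a library. Alternatives were DESeq2 1.42.0, limma 3.58.1 on log2(FPKM + 1) or log2(FPKM + 0.1), other size factors, filters and sample sets, a replicate block, and each library left out.

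Members, lists and tests were chosen with earlier results of these data known. Full values are given for members with a mean of at least 5 FPKM in any group or a call. From each list the called genes and the 3 with the smallest p in H12h against N are named. Of the 28 members, 27 have an entry in RefSeq (assembly USDA_OmykA_1.1), used for names and not for coordinates. The counting is not stated to use strand, so overlapping genes cannot be told apart.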

Additional observations from a re-analysis of the deposited data

Results flagged for a closer look

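The change against N differed between H3h and H24h for 2 of 18 tested members, by the direct test of H24h against H3h in edgeR. In that comparison 4.47% of all tested genes were called. The calls of IGFBP1 101268901 and igfbp2a 110528844 held in 12 and 15 of 24 alternatives, and neither gene was called against N in H3h or H24h. IGFBP1 101268901 was 4.29 lower on the log2 scale in H24h than in H3h (a log2 difference of -4.29), with changes against N of 2.85 in H3h and -1.45 in H24h. igfbp2a 110528844 was higher in H24h than in H3h by 1.88, with changes against N of -0.75 in H3h and 1.13 in H24h.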

How the results depend on the processing

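With 3 libraries a group, single libraries decide most calls. Shares of all tested genes are given above only for the main edgeR fit, DESeq2 and limma with a pseudocount of 1. For the other settings and each library left out, such shares are not given. Counts of members under those settings therefore cannot be read as particular to the IGF axis. The number of members called, by setting, was as follows where it moved by over 1.5 times. DESeq2 called 4 in H12h against N, 1 in H24h against N, 2 in R3h against N, 1 in H12h against H3h, 2 in H24h against H12h, 7 in H24h against H3h, 6 in R3h against H3h, 3 in R3h against H12h and 9 across the 5 groups. With both H12h replicate 3 and R3h replicate 3 left out, chosen after seeing the data, the counts were 4, 2 and, for H12h against H3h, 3; they were 1 in H24h against H12h, 6 in H24h against H3h, 5 in R3h against H3h, 1 in R3h against H12h and 8 across the groups. A fit of the 2 groups compared gave 0 in R3h against N, 6 in H24h against H3h and 0 in R3h against H3h. limma with a pseudocount of 0.1 gave 1 across the groups.

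With a replicate block the counts were 1 in H24h against H3h, 0 in R3h against H3h and 0 across the groups. The block ended the calls of IGFBP1 101268901 in H24h against H3h (adjusted p = 0.0688) and of igfbp2a 110528844 in R3h against H3h (0.0513). Across the groups it ended those of IGFBP1 101268901 (0.0623), igfbp2a 110528844 (0.0606) and igfbp5 100136311 (0.0556). Over 30 pairs of same-numbered libraries from different groups, the r of their deviations from the group means ran from -0.182 to 0.34. The median was 0.022 and 7 were over 0.1. For 60 pairs with different numbers the median was -0.016 and 10 were over 0.1. The labels do not say what the numbers mark. With 3 libraries a group these values cannot settle whether the numbers pair the samples.

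Leaving out each library in turn, the counts ran from 0 to 4 in H12h against N, 0 to 1 in H24h against N, 0 to 2 in R3h against N, 0 to 1 in H12h against H3h, 0 to 1 in H24h against H12h, 0 to 6 in H24h against H3h, 0 to 4 in R3h against H3h, 0 to 1 in R3h against H12h and 0 to 7 across the groups; they stayed at 0 in H3h against N and R3h against H24h.

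No called change reversed sign. Several uncalled log2 changes against N did. For Igfals 110486336 they were -0.27 in H12h and -0.24 in H24h with both limma settings, -0.029 in H24h with a mean FPKM of at least 1, and 0.071 in R3h with both libraries left out. For Igfals 110538281 in R3h they were -0.15 and -0.17 with limma. For igfbp2b 110520601 in H3h they were 0.03 with no filter, 0.096 and 0.097 with limma and 0.006 with the block. With 1 library left out, the changes ran from -0.60 to 0.004 (H3h), -0.13 to 0.37 (H12h), -0.29 to 0.22 (H24h) and -0.52 to 0.071 (R3h) for Igfals 110486336, and from -0.80 to 0.065 (H3h) for Igfals 110538281. They ran from -0.24 to 0.44 for igfbp2b, -0.80 to 0.076 for igfbp2a 100136678 and -0.41 to 0.15 for GHR 100136277 in H3h. They ran from -0.71 to 0.089 for igf2 in H24h, and for IGFBP1 101268901 from -1.98 to 0.043 in H24h and -1.07 to 0.95 in R3h. The causes were not tested.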
